A study of Mus musculus with 125 samples.

Results

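A set of 7 Wnt pathway genes, among 27998 gene rows in the single-cell tables, was followed through mouse endothelium: Fzd4, Fzd6, Lrp5, Lrp6, Tspan12, Reck and Ctnnb1. All but Ctnnb1, which encodes the transducer beta-catenin, encode receptors, co-receptors or their partners. The 7 genes were chosen by name, and 2 kinds of measurement were taken for each. The first was the number of UMIs (unique molecular identifiers, each standing for 1 captured RNA molecule) in brain endothelial barcodes. The second was the set of ATAC-seq peaks, which mark open chromatin, that overlapped the gene or lay within 50 kb of it in mm10. Merging the peaks of all libraries gave 514158 open regions, of which 367 belonged to the 7 genes, with 166 of them inside a gene.

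The ATAC-seq data comprised 66 libraries of mouse tissue, 37 labelled endothelial and 29 labelled input. At P6 and in adults, aged 2 months in the series' design text, they came from brain, retina, heart, kidney, liver and lung, with 14 endothelial and 16 input libraries at P6 and 12 and 10 in adults; at E12 they came from brain, heart and trunk, with 11 endothelial and 3 input libraries. Per the labels' protocols, all these animals carried a GFP reporter that tamoxifen switched on in vessels before collection, the text stops before the nuclei are separated, and it places the postnatal collection 1 day after the labelled P6; the promoter that drives the recombinase is not given in the sources used here. The single-cell data comprised 5 brain libraries, 1 from each age, in embryos at E9.5, E12.5 and E16.5, then in pups at P8 and in the adult, from cells captured with an antibody to CD31, and cortex alone was dissected at P8 and in the adult. The library labelled E16.5 is named by its label throughout, although the name of its deposited file reads as an embryonic day later than that, and its matrix came with no gene table, so its age and its place in each order of ages rest on the label.

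Wnt proteins, and in the retina the unrelated ligand norrin, bind Frizzled receptors together with the co-receptors LRP5 or LRP6 at the cell surface. Binding stops a destruction complex from degrading beta-catenin, which then enters the nucleus and acts with TCF/LEF factors on their target genes. In the endothelium of brain and retina this pathway is known for vessel growth and for the blood-brain and blood-retina barriers, with TSPAN12 as the partner of FZD4 in norrin signalling and RECK as the partner of the adhesion receptor GPR124 in the response to Wnt7a and Wnt7b.

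The 7 genes lie on 6 chromosomes of GRCm38.p6, the RefSeq assembly used for names and spans: Fzd4 on chromosome 7 (89404366 to 89410110), Fzd6 on 15 (39006149 to 39038192), Lrp5 on 19 (3584825 to 3686585), Lrp6 on 6 (134446476 to 134566913), Tspan12 on 6 (21771391 to 21879596), Reck on 4 (43875521 to 43944806) and Ctnnb1 on 9 (120933400 to 120960507). RefSeq start sites with promoter sequence were matched for 4 of the 7, Fzd4, Tspan12, Reck and Ctnnb1, and not for Fzd6, Lrp5 and Lrp6. The 4 sequences are shown because each runs up to a start inside a region that was open in nearly every library of every organ: 66 of 66 for Fzd4 and Ctnnb1, 65 for Tspan12 and 64 for Reck. Each gives the 250 bases before the start, 5′ to 3′ on the gene's strand, and capitals mark matches, on either strand, to 6 short motifs that were chosen after the sequences had been seen. The Fzd4 sequence is chr7:89404116-89404365 (plus strand), Tspan12 chr6:21852534-21852783 (minus), Reck chr4:43875280-43875529 (plus) and Ctnnb1 chr9:120933150-120933399 (plus, the first of its 2 RefSeq entries).
Fzd4: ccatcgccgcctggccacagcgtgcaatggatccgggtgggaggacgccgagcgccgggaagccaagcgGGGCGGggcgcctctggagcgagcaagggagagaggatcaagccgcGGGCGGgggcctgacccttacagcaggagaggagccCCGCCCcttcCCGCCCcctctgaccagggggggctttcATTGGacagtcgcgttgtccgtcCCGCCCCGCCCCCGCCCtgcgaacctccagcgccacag
Tspan12: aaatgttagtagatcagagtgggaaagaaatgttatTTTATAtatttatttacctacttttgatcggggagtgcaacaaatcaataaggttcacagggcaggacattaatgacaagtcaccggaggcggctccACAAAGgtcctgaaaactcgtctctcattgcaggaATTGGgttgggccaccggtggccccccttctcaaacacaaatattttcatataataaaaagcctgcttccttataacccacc
Reck: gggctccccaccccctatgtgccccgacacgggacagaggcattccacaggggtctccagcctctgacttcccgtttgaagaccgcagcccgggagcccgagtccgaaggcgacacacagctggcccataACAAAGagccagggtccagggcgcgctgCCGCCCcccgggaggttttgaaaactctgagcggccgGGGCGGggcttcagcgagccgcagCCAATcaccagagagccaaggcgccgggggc
Ctnnb1: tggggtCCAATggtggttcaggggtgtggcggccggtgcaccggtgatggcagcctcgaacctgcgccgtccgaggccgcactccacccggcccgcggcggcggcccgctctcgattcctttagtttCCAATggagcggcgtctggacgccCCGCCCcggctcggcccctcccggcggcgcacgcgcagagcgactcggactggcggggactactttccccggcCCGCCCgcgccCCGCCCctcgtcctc
The motifs searched were CTTTGAT (TCF/LEF), ACAAAG (the core shared by SOX and TCF/LEF factors), GGGCGG (SP/KLF), CCAAT (NF-Y), CCGGAA (ETS) and TATAAA (the motif of TBP). The Fzd4 sequence held 7 matches to GGGCGG, a pair of which share 1 base, and 1 to CCAAT, and 72.8% of its bases were G or C. Tspan12 was the least GC-rich of the 4 (42%) and held 1 match each to the SOX and TCF/LEF core, the NF-Y motif and the TBP motif. Reck held 1 match to ACAAAG, 2 to GGGCGG and 1 to CCAAT, and Ctnnb1 held 3 to GGGCGG and 2 to CCAAT. None of the 4 held CTTTGAT or CCGGAA. Among all 32817 RefSeq promoter sequences of this length, 3.21% held CTTTGAT, 16.5% ACAAAG, 32.7% GGGCGG, 33.8% CCAAT, 12.02% CCGGAA and 12.4% TATAAA. For the other 3 genes, a region covering one end of the annotated gene was open in 65 libraries for Fzd6, 65 for Lrp6 and 52 for Lrp5.

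A barcode was counted as endothelial when at least 3 of Cdh5, Pecam1, Egfl7, Esam, Tie1 and Kdr had a UMI, with at least 200 genes and at most 10% mitochondrial UMIs. This left 23709 of 42340 barcodes, between 3154 and 6347 per library, with a median of 4896 to 10469 UMIs. There was 1 library per age, so no test between ages was possible, and the intervals (95%, exact Poisson) cover counting error only. Since cortex alone was dissected at P8 and in the adult, age and brain region cannot be told apart between embryonic and later libraries. Levels are in CPM, the UMIs of a gene divided by all UMIs of the endothelial barcodes and multiplied by 1000000. They are compared between ages and not between genes, since no gene length enters them. A gene was called different between ages when it differed at least 2-fold, with intervals apart, and reached 10 CPM in at least 1 of the libraries. Libraries shared between 0 and 50 barcodes. The E9.5, P8 and adult matrices carry a Cell Ranger 4.0.0 header and the E12.5 and E16.5 matrices do not, so changes within the same kind of matrix are given beside the others.

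Fzd4, the receptor for norrin and for several Wnts, was most abundant in the adult. Its level was 32.6 CPM at E9.5 [31.0, 34.3], 33.4 in the E12.5 library [32.2, 34.7], 42.4 at E16.5 [40.5, 44.4], 67.3 in the P8 library [65.2, 69.4] and 234 in the adult [228, 240]. The first 2 ages did not differ beyond their intervals, and each later age was above the one before it. The adult level was 7.00-fold that of E12.5 [6.68, 7.33], 7.18-fold that of E9.5 [6.78, 7.61] and 3.48-fold that of P8 [3.34, 3.63]. The share of endothelial barcodes with a UMI was 21.1, 30.3, 33.6, 46.1 and 67.3% in order of age, or 6.14, 6.48, 6.81, 12.5 and 35.8% after each barcode was thinned to 2000 UMIs.

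Fzd6, a Frizzled best known for planar cell polarity, followed a different course, with its large difference before birth. It was 2.93 CPM at E9.5 [2.45, 3.47], 47.6 in the E12.5 library [46.1, 49.2], 93.6 at E16.5 [90.7, 96.5], 141 in the P8 library [138, 144] and 135 in the adult [130, 140]. P8 and adult did not differ beyond their intervals, and the other ages were all apart. The P8 level was 48.0-fold that of E9.5 [40.5, 57.3] and the adult level 46.1-fold [38.8, 55.2], both within the same kind of matrix, and E12.5 was 16.3-fold above E9.5 [13.7, 19.5] across kinds. At E9.5, 134 UMIs were counted and 2.32% of barcodes had one, against 70.5% at P8; thinned to 2000 UMIs, the shares were 0.707% and 27.3%. The E9.5 level, on which these folds rest, was not distinguishable from that of barcodes with none of the 6 endothelial genes (1.80 CPM [0.661, 3.92], 6 UMIs).

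The LRP co-receptors were both highest in the adult. Lrp6 was higher at each later age, from 23.5 CPM at E9.5 [22.1, 25.0] through 26.9 in the E12.5 library [25.8, 28.1], 40.6 at E16.5 [38.7, 42.6] and 56.3 in the P8 library [54.4, 58.2] to 115 in the adult [111, 120]. All neighbouring ages were apart, and the adult level was 4.28-fold that of E12.5 [4.04, 4.53]. Lrp5, which is known for its role in retinal vascular growth, was low before adulthood: 7.41 CPM at E9.5 [6.64, 8.24], 12.9 in the E12.5 library [12.1, 13.7], 11.9 at E16.5 [10.8, 12.9], 6.75 in the P8 library [6.11, 7.44] and 29.8 in the adult [27.6, 32.1]. The P8 level of Lrp5 did not differ from that of E9.5 beyond the intervals and was the lowest of the 5, and the adult level was 4.41-fold above P8 [3.90, 5.00] and 2.31-fold above E12.5 [2.09, 2.54].

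The receptor partners moved apart from each other. Tspan12, the tetraspanin partner of FZD4, was 10.1 CPM at E9.5 [9.18, 11.04], 45.7 in the E12.5 library [44.2, 47.2], 88.3 at E16.5 [85.5, 91.1], 73.8 in the P8 library [71.6, 76.0] and 64.9 in the adult [61.7, 68.3], so its highest library was the one labelled E16.5. Its adult level was 1.42-fold that of E12.5 [1.34, 1.51] and 6.44-fold that of E9.5 [5.80, 7.17]. Reck, the membrane-anchored protein that joins GPR124 in Wnt7 reception, was 3.74 CPM at E9.5 [3.199, 4.34], 7.14 in the E12.5 library [6.57, 7.75], 8.14 at E16.5 [7.31, 9.05], 8.77 in the P8 library [8.04, 9.55] and 52.8 in the adult [49.9, 55.9]. E12.5, E16.5 and P8 were not apart in neighbouring order for Reck, and the adult was 6.02-fold above P8 [5.44, 6.68] and 7.39-fold above E12.5 [6.69, 8.18].

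Ctnnb1 encodes beta-catenin, the pathway's transducer and also a component of adherens junctions. Its level was 254 CPM at E9.5 [250, 259], 420 in the E12.5 library [415, 424], 345 at E16.5 [339, 351], 534 in the P8 library [528, 540] and 614 in the adult [604, 624]. All 5 ages were apart, with E16.5 below E12.5, and the adult level was 1.46-fold that of E12.5 [1.43, 1.49]. A UMI of Ctnnb1 was found in 76.7 to 95.4% of endothelial barcodes.

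**Figure D1:**
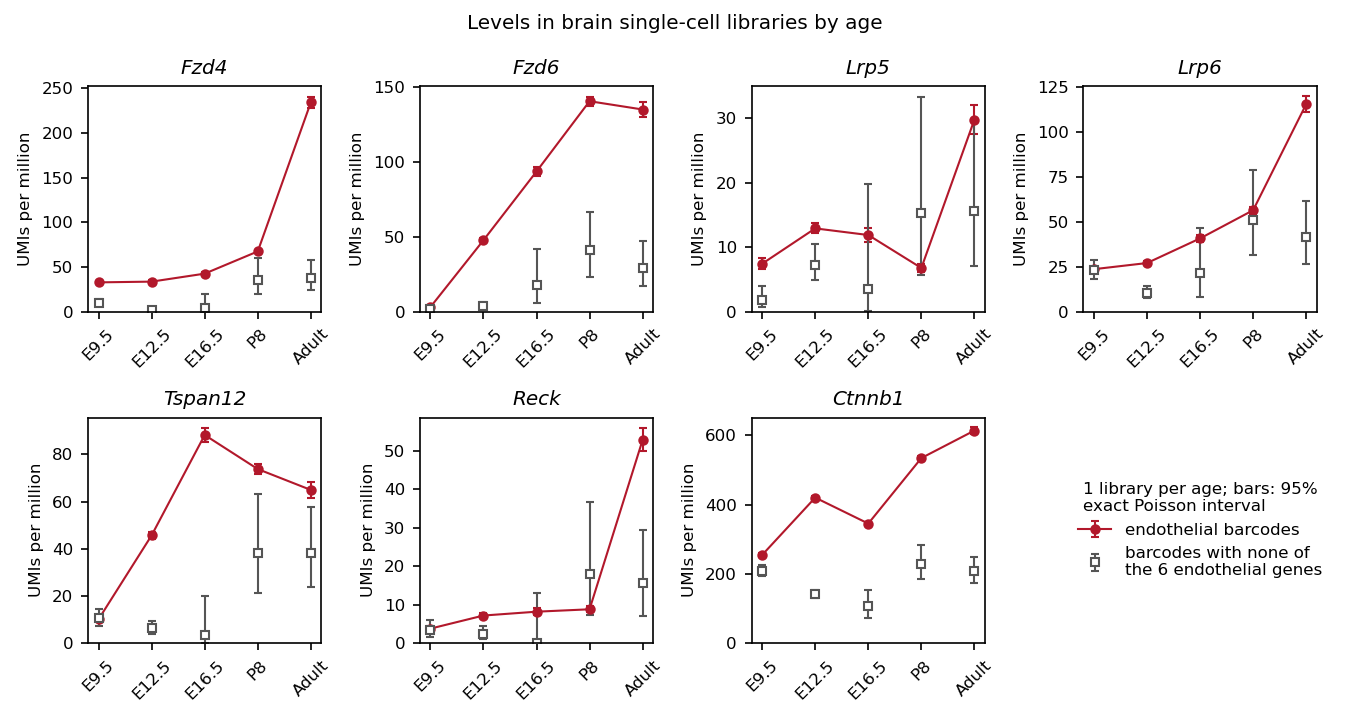
CPM, or UMIs of the gene in 1000000 UMIs (vertical axis), at each age (horizontal axis) for the 7 genes, with 1 library per age; filled circles are endothelial barcodes, open squares are barcodes with none of the 6 endothelial genes, and bars are 95% exact Poisson intervals. Fzd4, Reck, Lrp5 and Lrp6 stand highest in the adult, at 234, 52.8, 29.8 and 115 CPM, Fzd6 is level between P8 and adult, and Tspan12 is highest at E16.5 with 88.3.

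Between E12.5 and adult, 5 of the 7 genes were at least 2-fold higher and none was lower; of the 9213 genes detected in these libraries, 29.1% were at least 2-fold higher in the adult and 22.5% lower. Reck reached 10 CPM in the adult alone of this pair, so it entered through the library where it was high. The same 5 genes were called under stricter barcode filters, without the deepest 5% of barcodes, after thinning to 2000 UMIs and without barcodes that held genes of other cells. Within one kind of matrix, adult against E9.5, all 7 were at least 2-fold higher, where 34.8% of 9162 genes were higher and 21.5% lower, and Fzd6, Lrp5 and Reck reached 10 CPM in the adult alone. Between E9.5 and P8 the genes called higher were Fzd6, Tspan12, Lrp6, Ctnnb1 and Fzd4 (28% of all detected genes), and between P8 and adult they were Reck, Lrp5, Fzd4 and Lrp6 (13.6%). Between E9.5 and E12.5 they were Fzd6 and Tspan12 (19.2%). Fzd6 was under 10 CPM at E9.5, and Reck and Lrp5 were under it at P8. In these comparisons those genes entered through the library where they were high. No member was called lower in these 3 comparisons, where 16.1%, 10.4% and 8.98% of genes were. None of the 7 was called between E12.5 and E16.5 (8.16% of genes higher and 6.8% lower), where Fzd6 was 1.96-fold higher [1.88, 2.05] and Tspan12 1.93-fold [1.85, 2.02], nor between E16.5 and P8 (11.1% and 7.68%).

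Other cells were present in these preparations to different degrees. Of the 8 pericyte and smooth muscle genes, all 8 had UMIs at every age, and their summed level in endothelial barcodes was highest in the adult, at 1349 CPM, against 69.5 at E12.5 and 158 at E9.5. The list of 9 neural progenitor, neuron and astrocyte genes, 8 of them with UMIs in the adult and Neurod1 at 0, also had its highest sum there, at 330 CPM against 119 at E12.5 and 46.4 at E9.5. Stmn2 alone made up 319 of the adult CPM and 108 of those at E12.5, and no other gene of that list was above 8.04 CPM in the adult. The mesenchymal sum was 70.1 CPM in the adult against 27.5 at E12.5, and the microglial, erythroid and epithelial sums were lower in the adult than at E12.5. When barcodes with 2 or more genes of another cell type's list, or with over 10 erythroid UMIs, were left out, the pericyte sum was 110 CPM in the adult and 12.3 at E12.5 and the mesenchymal sum 2.43 and 5.28. This left out 62.7% of the endothelial barcodes at E12.5, 69.6% at E9.5 and 16.2% in the adult, so the ages were not cut alike. Rgs5 made up 104 of the pericyte CPM that remained in the adult and 6.11 at E12.5. The removal left most of the neural sum, 283 CPM in the adult and 102 at E12.5, of which Stmn2 held 279 and 96.0; its part in the levels of the members was not tested. With these barcodes left out, the adult level relative to E12.5 was 7.33-fold for Fzd4, 8.91-fold for Reck, 5.30-fold for Lrp6, 3.002-fold for Fzd6 and 2.72-fold for Lrp5. Barcodes with none of the 6 endothelial genes gave the level outside the endothelium, with free RNA included; their median depth was 1247 to 6496 UMIs. The endothelial level was above it, with intervals apart, for all 7 genes at E12.5, for 6 in the adult, for 4 at P8, for 4 at E16.5 and for 3 at E9.5. Among all genes of at least 1 CPM in the endothelial barcodes, the shares above it were 51.7%, 14.9%, 15.1%, 16.5% and 18.8% in the same order. The barcodes with none of the 6 genes numbered 554, 176, 130, 51 and 1118 in that order. In the adult these barcodes held 38.0 CPM of Fzd4 [23.8, 57.5], 29.3 of Fzd6 [17.1, 47.0] and 15.5 of Reck [7.10, 29.5], under the endothelial levels, while Lrp5, at 15.5 [7.10, 29.5] against 29.8 [27.6, 32.1], overlapped. At E9.5 the genes that overlapped were Fzd6 (1.80 [0.661, 3.92]), Lrp6 (22.8 [17.98, 28.6]), Tspan12 (10.5 [7.32, 14.6]) and Reck (3.30 [1.65, 5.91]). At P8 they were Lrp5 (15.3 [5.62, 33.3], 6 UMIs), Lrp6 (51.0 [31.2, 78.8]) and Reck (17.9 [7.18, 36.8], 7 UMIs), and at E16.5 Lrp5 (1 UMI), Lrp6 (6 UMIs) and Reck (0 UMIs, an upper limit of 13.1 CPM). At these ages those genes were not distinguishable from the level outside the endothelium at this depth. In the 133 erythroid barcodes of E12.5, with a median of 7516 UMIs, the share with a UMI was at most 3.01% for the receptors and partners and 13.5% for Ctnnb1. No doublet caller was run.

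The level of some members differed within the endothelial barcodes. Barcodes with UMIs of at least 2 of 8 arterial genes (Bmx, Gkn3, Sema3g, Gja4, Gja5, Efnb2, Hey1 and Unc5b) were set against the rest of the same library. Fzd6 was higher in the arterial set at E12.5 (71.5 against 26.0 CPM), E16.5 (114 against 65.3) and P8 (180 against 119), with intervals apart, and not in the adult (140 [133, 147] against 131 [124.9, 137.6]). At E9.5 it was 4.69 against 2.13 CPM. Reck was higher in the arterial set at E12.5 (8.58 against 5.84), E16.5 (10.7 against 4.65), P8 (12.2 against 6.86) and in the adult (68.0 against 40.2), and its intervals overlapped at E9.5 (4.90 against 3.21). Ctnnb1 was above in the arterial set in 4 of 5 libraries, as at E12.5 with 486 against 360 CPM, and below in the adult, and Lrp6 was above in 3, as at E12.5 with 32.4 against 22.0 CPM. At E12.5, 5 of the 7 genes were above in the arterial set, as were 30.2% of the 11809 genes of at least 1 CPM, and 5 in the venous set, as were 18.3%. The arterial barcodes were deeper, with a median of 13227 against 9119 UMIs. At that age barcodes with at least 2 venous genes held as large an excess of Reck over their rest (7.92 against 5.35 CPM, 1.48-fold, beside 1.47-fold for the arterial set); in the venous sets of the other 4 libraries the intervals of Reck overlapped. Fzd4 ran the other way in the adult, at 172 CPM in the arterial set [164, 180] against 286 in the rest [277, 296], and was the opposite at E9.5, at 38.9 [35.7, 42.3] against 29.8 [27.9, 31.7]; at E12.5, E16.5 and P8 its intervals overlapped. Lrp5 was also lower in the adult arterial set, at 24.3 against 34.3 CPM. Of the genes of at least 1 CPM, 18.6% were above in the arterial set at E9.5, beside 3 members. The share was 21.9% at E16.5, beside 4 members, and 27.1% at P8, beside 5. In the adult 19.1% were above and 15.8% below, beside 1 and 3 members. The set is a range of a detection score and not a cell type, since 273 of its 1060 adult barcodes and 999 of its 2550 at E12.5 had exactly 2 of the genes, and its barcodes were deeper, with a median of 6436 against 4391 UMIs in the adult. After thinning every barcode to 2000 UMIs before the genes were counted, Fzd6 stood at 116 CPM [100.9, 131.9] in the set against 31.2 in the rest at E12.5, Reck at 67.9 [55.0, 82.9] against 45.5 in the adult and Fzd4 at 166 [146, 189] against 259 in the adult, while Fzd6 at E9.5 overlapped (4.93 [1.81, 10.7] against 3.36). Thinned Fzd4 at E9.5 stood at 56.7 [44.1, 71.8] in the set against 29.6, and Reck, there with intervals apart, at 9.87 [5.10, 17.2] against 3.36 [2.30, 4.74]. Thinned Ctnnb1 was again apart at the 4 younger ages and overlapped in the adult, Lrp6 was apart only at P8 (78.4 [63.9, 95.3] against 54.0 [49.0, 59.3]), and the adult Lrp5 difference overlapped (28.3 [20.2, 38.5] against 34.9 [29.7, 40.8]).

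**Figure D2:**
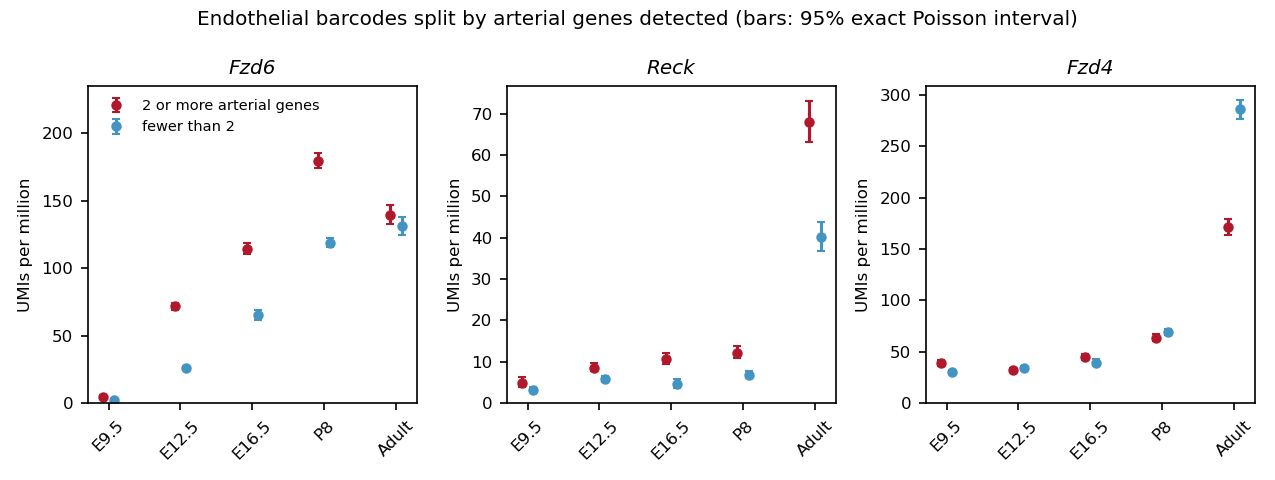
CPM, or UMIs of the gene in 1000000 UMIs (vertical axis), of Fzd6, Reck and Fzd4 at each age (horizontal axis) in endothelial barcodes with at least 2 of the 8 arterial genes (red) and in the remaining endothelial barcodes of the same library (blue); bars are 95% exact Poisson intervals. Fzd6 is apart before adulthood, as at E12.5 with 71.5 against 26.0, Reck is apart in the adult with 68.0 against 40.2, and Fzd4 is lower in the adult arterial set with 172 against 286.

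Cycling barcodes, with UMIs of at least 2 of Mki67, Top2a, Birc5, Cdk1, Ccnb1 and Cenpf, held less Fzd6 than the others at E12.5 (39.1 against 72.8 CPM), E16.5 (63.0 against 106) and P8 (93.2 against 163). Tspan12 was also lower in them at these ages, at 43.4 against 52.4, 72.0 against 94.9 and 56.3 against 82.1 CPM, and Fzd4 and Lrp5 showed overlapping intervals in all 5 libraries. Cycling barcodes made up 4965 of the 5644 at E9.5 and 1 of the 3154 in the adult. They were also deeper, with medians of 12660 against 7461 UMIs at E12.5. With thinned barcodes Fzd6 remained lower, at 32.0 [26.9, 37.7] against 50.3 at E12.5, 33.0 [19.5, 52.1] against 97.8 at E16.5 and 95.9 [71.4, 126] against 167 at P8, while the intervals of Tspan12 overlapped at all 3 ages. Ctnnb1 was lower in cycling barcodes at the same 3 ages, as at P8 with 473 against 563 CPM, and thinned with 479 [422, 542] against 583 [567, 599]. Lrp6 was lower in 1 library. Of all genes of at least 1 CPM, 23.5% were lower in cycling barcodes at E12.5, beside 3 of the 7 members. The share was 20.8% at E16.5, beside 3 members, and 31.3% at P8, beside 4.

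The genes nearest to each member in their course over the 5 libraries were found among 7832 genes, by the mean absolute difference of log2(CPM + 10) after centring each gene. Nearest were Ptprj and Galnt15 for Fzd4, St3gal6 and Maoa for Fzd6, Rarg and Rfk for Lrp5, Picalm and Nacc2 for Lrp6, Tmem9b and Serinc5 for Tspan12, Oasl2 and Gm15998 for Reck, and Phldb2 and Mib1 for Ctnnb1. The smallest difference was 0.0268, between Fzd4 and Ptprj, a receptor phosphatase. Among the members themselves, Fzd4 and Reck (0.239), Fzd4 and Lrp6 (0.240) and Lrp6 and Reck (0.250) were closest, and Fzd4 and Fzd6 (0.970) were farthest apart. Since 10 is added to each level, likeness here is not likeness in fold: Galnt15 ran from 0.0437 CPM at E9.5 to 45.1 in the adult and Ptprj from 1.11 at E12.5 to 52.4, wider than the 7.18-fold range of Fzd4. Nacc2 ranged 28.7-fold against 4.90-fold for Lrp6, and Oasl2 61.1-fold and Gm15998 38.8-fold against 14.1-fold for Reck. These are descriptions over 5 libraries that differ in depth and dissection.

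The rest of the pathway was read from 8 lists holding 92 genes, of which 38 reached 10 CPM at E12.5 or in the adult; 19 of them were at least 2-fold higher in the adult and 3 lower, beside 29.1% and 22.5% of all detected genes. Without the barcodes that held genes of other cells, whose pericyte sum is given above, 21 of 38 were higher, the 19 among them, and the same 3 were lower, beside 29.4% and 23.9% of all genes. Of the 38, 15 reached 10 CPM in 1 of the libraries alone, among them 11 of the 19 and 2 of the 3, and these entered through the library where they were high. Of the 36 genes with a mean of at least 10 CPM over both libraries 18 were higher and 3 lower, beside 27.96% and 21.35% of all genes with such a mean. A high level in 1 library can lift a gene over this mean, so the filter does not remove that way of entry. The destruction complex and dishevelled list had 6 of 9 genes with such a mean higher and none lower, with Axin2, itself a target of the pathway, at 126 against 9.54 CPM (13.2-fold, and 16.6-fold without those barcodes), Dvl1 at 32.0 against 4.40 (7.27-fold) and Apc at 124 against 31.9 (3.88-fold). Of the 10 genes detected in this list, 5 reached 10 CPM in 1 library alone, 4 of them higher. Axin2 and Dvl1 were under 10 CPM at E12.5. Of the nuclear factors 5 of 11 with such a mean were higher, led by Lef1, a partner of beta-catenin on DNA, at 539 against 80.7 CPM (6.68-fold, and 6.41-fold without those barcodes). Of the 17 secreted or surface inhibitors 4 reached 10 CPM, each in 1 library alone, so no tally is drawn from them. Notum was at 55.3 against 3.02 CPM, Apcdd1 at 33.5 against 4.73, Kremen1 at 14.9 against 4.89 and Dkk2 at 5.08 against 16.6. Of the 20 ligands 2 reached 10 CPM, both in the adult alone, Wnt5a at 66.8 against 2.43 CPM and Wnt5b at 22.6 against 1.27. The other 18 did not reach it. Among partner and non-canonical receptors, Ryk (3.04-fold) and Adgra2, which encodes GPR124 (2.37-fold), were higher, while Ptk7 was lower, at 1.38 against 39.0. Znrf3, a ligase that clears Frizzled receptors, was at 15.7 against 6.51 CPM (2.41-fold). None of the 8 other Frizzled genes reached 10 CPM in either library. Of 6 such junction partners of beta-catenin none was higher and Cdh2 was lower, at 22.5 against 159 CPM. Within one kind of matrix, adult against E9.5, 39 were detected, 19 higher and 4 lower, beside 34.8% and 21.5% of all genes; without those barcodes 18 of 38 were higher and 4 lower. Of the 33 with a mean of at least 10 CPM 16 were higher and 2 lower, beside 32.9% and 20.7% of all genes with such a mean.

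In the ATAC-seq data, the open regions of each member were counted in every library. Peak lists held 19464 to 144197 peaks from 10.1 M to 59.1 M tags, and lists of input libraries were longer than those of endothelial libraries (medians of 48590 against 36756 in adults). Of 12 endothelial marker genes, 11 or 12 had an open region within 5 kb in every endothelial library and 2 to 12 in input libraries. Fewer endothelial nuclei in a preparation and less open chromatin per nucleus cannot be told apart in these data. Counts in the text use all peaks; since list length moves every gene's count, the value with the same number of top peaks in each library (19464, the shortest list) is given beside it. Labels do not say that replicates came from separate animals, so p-values measure the spread between these samples.

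At P6, Fzd6 carried more and Lrp6 fewer open regions in endothelial than in input libraries. The 14 endothelial libraries had 3 to 12 open regions at Fzd6 (median 9.5) and the 16 input libraries 1 to 13 (median 6.5), so the groups overlapped; the organ mean was higher in endothelium in 6 of 6 organs. The log2 difference (on the scale of number + 1) was 0.48 ± 0.16 (SE), with a limma adjusted p of 0.0224 and an exact permutation p of 0.0057 (2-sided, within organs). Lrp6 had 7 to 18 open regions in endothelial libraries (median 13) and 12 to 33 in input libraries (median 21), with the organ mean lower in endothelium in 6 of 6 organs. Its difference was -0.56 ± 0.16, with a limma adjusted p of 0.00797 and an exact permutation p of 0.0022. Across all 20460 genes tested 2.1% were higher in endothelium and 29.6% lower, and the median difference was -0.22, so a lower count was common. With equal numbers of top peaks the split of calls over all genes moved from 429 higher and 6050 lower to 2866 higher (15.2%) and 2343 lower (12.5%), and 4 members were higher: Tspan12 by 0.74 ± 0.17, Fzd6 by 0.58 ± 0.13, Reck by 0.57 ± 0.19 and Ctnnb1 by 0.54 ± 0.16, with limma adjusted p of 0.00229, 0.00266, 0.0257 and 0.0142. Lrp6 then differed by 0.031 and was not called. Fzd6 lost its call on bases covered (0.41, limma adjusted p = 0.0999) and with a replicate block (0.34, limma adjusted p = 0.154), and Lrp6 lost its call with the number of peaks as a covariate (-0.21, limma adjusted p = 0.0603). The replicate block kept only libraries whose organ and number occurred in both kinds, which left out every P6 liver library. The block and the loss of libraries are therefore not told apart here.

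In adults none of the 7 passed the test on all peaks, where 0.575% of 19653 genes were higher and 26.6% lower and 8293 genes had an unadjusted limma p under 0.05. Lrp6 had 5 to 17 open regions in 12 endothelial libraries (median 7) and 3 to 25 in 10 input libraries (median 13.5), lower in 6 of 6 organs, at -0.64 ± 0.24 with a limma adjusted p of 0.0549 and an exact permutation p of 0.00729. Fzd6 had 2 to 9 open regions (median 5.5) against 0 to 11 (median 3.5), at 0.54 ± 0.30 with a limma adjusted p of 0.181. Tspan12 had 1 to 11 (median 7.5) against 0 to 12 (median 5.5), at 0.33 ± 0.30. The groups overlapped for all 3. Lrp6 passed (limma adjusted p from 0.00463 to 0.0404) when any 1 of liver endothelial 2, liver input 1, lung input 1, retina endothelial 2 or retina input 1 was left out, and Fzd6 passed without lung input 2. With equal numbers of top peaks, where 1423 genes were higher (7.78%) and 1304 lower (7.13%) in place of 113 and 5234, Fzd6 was higher by 0.86 ± 0.23, Tspan12 by 0.72 ± 0.17 and Lrp5 by 0.56 ± 0.14, with limma adjusted p of 0.0244, 0.0131 and 0.0179.

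Fzd6 and Tspan12 were thus called higher with equal top peaks at both postnatal ages. At E12 none of the 7 passed on all peaks (0.6% of genes higher and 5.17% lower by limma; 4010 of 20324 genes at an unadjusted p under 0.05). Tspan12 was not higher there: it had 7 to 19 open regions in endothelium (median 15) against 17 to 19 in input, lower in 3 of 3 organs (exact permutation p = 0.1), and 2 to 5 against 3 to 6 with equal top peaks (lower in 2 of 3 organs, higher in none, exact permutation p = 0.19). Lrp6 again had fewer open regions in endothelium, 5 to 27 (median 22) against 25 to 34 in the 3 input libraries, lower in 3 of 3 organs with an exact permutation p of 0.03, where the smallest possible is 0.01. Without heart endothelial 3, the library with the shortest E12 list, limma called Lrp5 higher and Lrp6 lower. With equal top peaks 9.02% of genes were higher and 6.02% lower (1619 and 1080 in place of 122 and 1051), and Ctnnb1 was called higher and Lrp6 lower. No member passed a test of whether the difference between endothelium and input varied by organ (interaction F-test in limma; 1.07% of genes passed in adults and 1.16% at P6) or between P6 and adult (0% of genes by limma; 1657 genes at an unadjusted p under 0.05). With few genes passing anywhere, this does not show that the organs were alike: adult Reck had a mean of 12 open regions in brain endothelium against 8 in the 1 brain input library, and 5 against 11 in lung.

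Between P6 and adult endothelium all 7 genes had fewer open regions, as did 83.6% of all 19817 genes, with a median difference of -0.53 over all genes. Fzd4 had 1 to 15 at P6 (median 10) and 3 to 9 in adults (median 4.5), a difference of -0.91 ± 0.19. The differences of the other 6 ran from -0.84 ± 0.13 for Ctnnb1 to -0.50 ± 0.13 for Reck. With equal top peaks 3.98% of genes were higher and 3.33% lower (718 and 601 in place of 45 and 16564), and Reck alone of the 7 was called lower, at -0.43 ± 0.13 with a limma adjusted p of 0.0417. Between E12 and P6, in brain and heart, none of the 7 passed (0.00501% of genes higher at P6 and 1.73% lower by limma; 4032 genes at an unadjusted p under 0.05; with equal top peaks 384 genes, 2.17%, and 367, 2.07%, in place of 1 and 345); without E12 heart endothelial 3, Lrp6 was lower at P6.

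**Figure D3:**
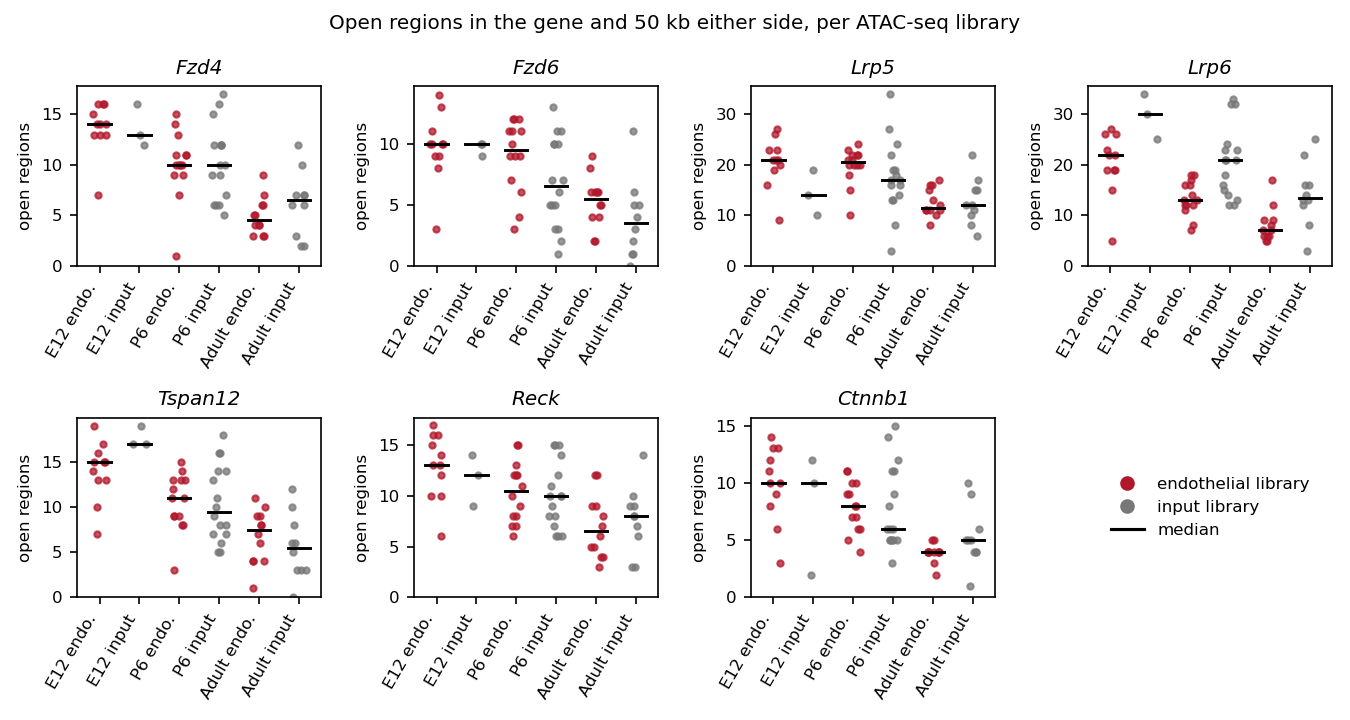
Number of open regions in each gene and 50 kb either side (vertical axis) for the 7 genes, by age and kind of library (horizontal axis); each point is 1 library and the lines are medians. Lrp6 sits lower in endothelial than in input libraries at each age, with medians of 13 and 21 at P6, Fzd6 sits higher at P6 with 9.5 and 6.5, and the endothelial median of every gene is lower in adults than at P6.

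Single regions gave positions within these genes. At P6, 191 member regions were open in enough libraries to be tested, by exact permutation within organs with Benjamini-Hochberg adjustment over all 205841 regions, and 22 differed between endothelial and input libraries. Of these, 16 were open more often in endothelium, 8.38% of the members' tested regions against a background of 2.82%, and 6 less often, 3.14% against 1.45%. Lrp5 had 5 of the 16 and none of the 6. Fzd4 had 3 more often and 1 less often open, Fzd6 3 and 0, Tspan12 3 and 2, Ctnnb1 2 and 1, Lrp6 0 and 2, and Reck had none of either. The regions tested numbered 38 for Lrp5, 24 for Fzd4, 15 for Fzd6, 25 for Tspan12, 19 for Ctnnb1, 49 for Lrp6 and 21 for Reck. The share more often open was thus 13.2% for Lrp5, beside 20% for Fzd6, 12.5% for Fzd4, 12% for Tspan12 and 10.5% for Ctnnb1. Of the 22, 14 lay inside the gene. At adult age 15 of the 16 were open in a larger share of endothelial than input libraries and 5 of the 6 in a smaller share. These shares pool the organs, and the same count over all regions called at P6 was not taken. No result about the members is drawn from it. In a test of the adult libraries alone no region passed, of the members' 117 or of all 90506 (0% in either direction). In either direction, 16 of the 117 had an unadjusted exact permutation p under 0.05, against 10.5% of all regions. Of these 16, 11 were open more often in endothelium, and the share of all regions by direction was not taken. The lowest adjusted p among the 16 was 0.302. The smallest exact permutation p possible with the adult libraries was 8.57e-05. After adjustment over 90506 regions, a region at that limit could pass only if many others reached it too. The absence of adult calls therefore does not show that the regions were alike.

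4 of the Lrp5 regions lay inside the gene and were open in all 14 endothelial libraries of every organ at P6. The one at chr19:3665405-3666044 was open in 5 of 16 input libraries (adjusted exact permutation p = 0.016), and the one at chr19:3668506-3669774 in 6 of 16 (p = 0.0216). The fifth Lrp5 region, chr19:3560605-3561090, 23.7 kb outside the gene, was open in 13 of 14 endothelial and 2 of 16 input libraries (adjusted exact permutation p = 0.012). Tspan12 held regions of both directions inside its gene. The region at chr6:21798163-21799061 was open in 14 of 14 endothelial and 5 of 16 input libraries (adjusted exact permutation p = 0.0142), and the one at chr6:21837001-21837572 in 9 of 14 and none of 16. The region at chr6:21794827-21795854 was open in 2 of 14 endothelial and 14 of 16 input libraries (adjusted exact permutation p = 0.0132). For Fzd4, a region 22.6 kb outside the gene at chr7:89380842-89381792 was open in 13 of 14 endothelial and 4 of 16 input libraries (adjusted exact permutation p = 0.016). For Fzd6, a region inside the gene at chr15:39011489-39012071 was open in 10 of 14 and 1 of 16 (adjusted exact permutation p = 0.017), and its 4 closed endothelial libraries were those of kidney and liver. For Lrp6, a region inside the gene at chr6:134512571-134514487 was open in 2 of 14 endothelial libraries, both of brain, and in 12 of 16 input libraries (adjusted exact permutation p = 0.0247).

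The number of called regions moved with single libraries, for the members and over all regions. Leaving out kidney endothelial 1 left 9 member regions. Leaving out any 1 of brain endothelial 3, brain input 3, kidney endothelial 2, retina endothelial 2 or retina endothelial 3 left 14. Over all regions, 2.82% more and 1.45% less often open became 1.38% and 0.439% without kidney endothelial 1. Without any 1 of the others named, these shares were 1.74 to 2.02% and 0.599 to 0.778%. With equal top peaks 14 of 54 member regions tested were called, all more often open in endothelium, where 9.26% of all 46658 regions were called more often open and 1.11% less often. Of the 14, 5 were among the 22.

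**Figure D4:**
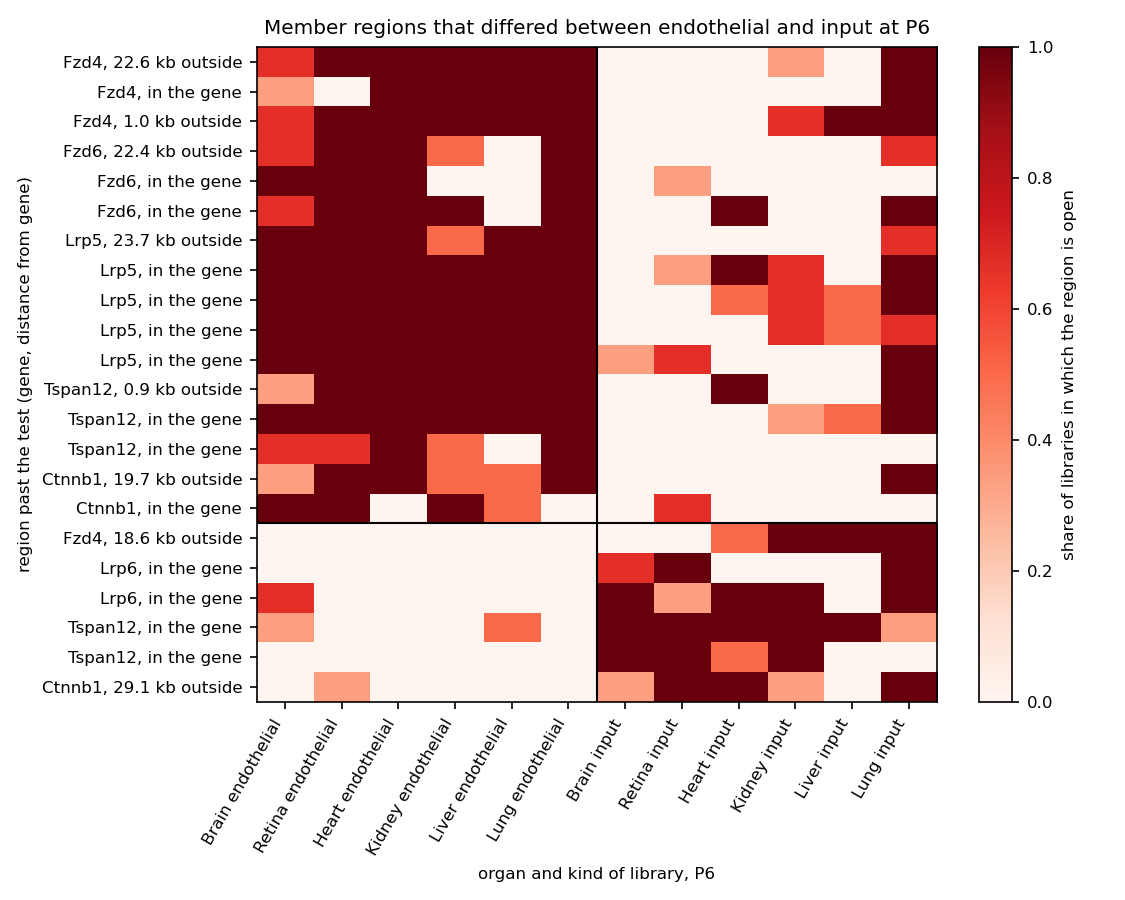
Share of libraries in which each of the 22 called member regions was open (colour, from 0 to 1), by organ for endothelial and input libraries at P6 (horizontal axis); rows give the gene and the distance of the region from it. The upper 16 rows are open more often in endothelium and the lower 6 less often; the 4 rows for Lrp5 inside the gene are open in every endothelial library.

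Brain and retina, the organs whose vessels form a barrier, were compared with heart, kidney, liver and lung over the 6 organ means of endothelial libraries, which allow no exact permutation p below 0.0667. In adults Reck had 12 open regions in both brain libraries and 9 in both retina libraries, against organ means of 3.5 to 6.5 elsewhere. Fzd6 had 8 and 9 in brain and 5 and 6 in retina, with means of 8.5 and 5.5, against means of 4 to 5 elsewhere. Both orders were complete for these 2 genes (2-sided exact permutation p = 0.0667), as they were for 22.9% of all 19882 genes, so this order was common. Tspan12 lay the other way, with 4 in both brain libraries and 1 and 4 in retina, means of 4 and 2.5, against means of 7 to 9.5 (exact permutation p = 0.0667). Fzd4 had 3 and 4 in both organs, means of 3.5, against means of 4 to 7.5 (exact permutation p = 0.133). Brain and retina were both below all 4 other organs for 1.41% of genes. Lrp5, Lrp6 and Ctnnb1 overlapped. With equal top peaks Fzd4, Tspan12, Lrp5, Lrp6 and Ctnnb1 were below in brain and retina (5.26% of genes) and Reck above (13.2%), and Fzd6 overlapped. At P6 Tspan12 was again below, with means of 7 and 9.33 against 9.5 to 13.5 (2.8% of genes; exact permutation p = 0.0667), and none of the members was above (17.5% of genes). With equal top peaks at P6 Tspan12, Fzd4 and Lrp5 were below (7.05% of genes) and none above (15.3%).

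**Figure D5:**
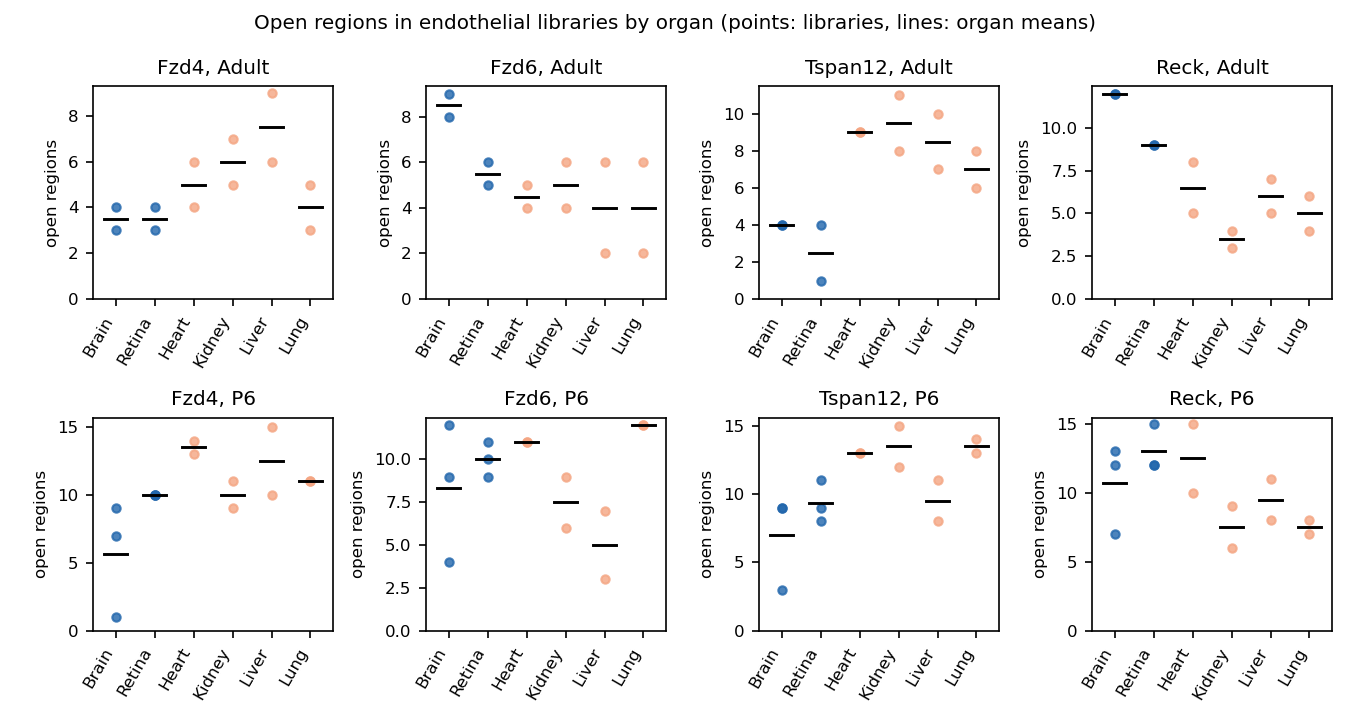
Number of open regions (vertical axis) in endothelial libraries of each organ (horizontal axis) for Fzd4, Fzd6, Tspan12 and Reck, in adults (top) and at P6 (bottom); points are libraries, blue for brain and retina and orange for the others, and lines are organ means. In adults Tspan12 has means of 4 and 2.5 in brain and retina against 7 to 9.5 elsewhere, and Reck 12 and 9 against 3.5 to 6.5.

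A few regions were open in endothelial libraries of brain and retina (at least 2 of each) and in no endothelial library of heart, kidney, liver or lung of the same age. Reck held the one that met this at both ages, inside the gene at chr4:43919533-43920145. It was open in all 4 adult and all 6 P6 endothelial libraries of brain and retina and in the 3 E12 brain endothelial libraries, in none of heart or trunk at E12, and in none of the 29 input libraries. A pair of other Reck regions, both inside the gene, met it at 1 age, chr4:43883526-43884975 in adults and chr4:43918253-43918831 at P6; the former was open in 10 input libraries and the latter in none. A region 18.3 kb outside Fzd6, chr15:38985969-38987807, met it at P6 and was open in 4 input libraries. In all, 2 of 68 member regions met the rule in adults against 3.12% of all regions, and 3 of 121 at P6 against 4.6%, so the members held no larger share than other genes. The converse, open in at least 2 endothelial libraries of each of the other 4 organs and in none of brain and retina, was met by an Lrp5 region in adults, chr19:3645324-3646485, which was open in all 14 P6 endothelial libraries, and by another at P6, chr19:3667090-3667669 (0.805% and 0.529% of all regions).

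The wider pathway lists were read in the same ATAC-seq comparisons. Of the 92 genes 1 was higher and 30 lower in adult endothelium than in input, and 1 higher and 35 lower at P6, where the background shares given above are 26.6% and 29.6% lower. With equal top peaks 8 of 89 tested were higher and 11 lower in adults, and 14 of 91 higher and 14 lower at P6, beside background shares of 7.78% and 7.13% and of 15.2% and 12.5%; 11 of the lower genes were lower on all peaks too at each age. The gene that was higher was the junction cadherin Cdh5, by 0.68 ± 0.18 in adults with a limma adjusted p of 0.0139; with equal top peaks it was higher by 1.57 ± 0.21. Of the 20 ligand genes 9 were lower in adults and 8 at P6, and 2 and 6 with equal top peaks, where 1 and 2 were higher. Of the 13 nuclear factors 0 were higher on all peaks at either age, and 4 were lower in adults and 2 at P6. With equal top peaks 4 were higher in adults and 5 at P6, and 0 and 1 lower. The lower gene at P6 was Lef1, at -0.64 ± 0.23 with a limma adjusted p of 0.037. Of the 8 other Frizzled genes 2 and 5 were lower, and 2 and 1 with equal top peaks, among them Fzd7 at -1.39 ± 0.19 in adults on all peaks and -0.58 ± 0.12 with equal top peaks.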

How the data were processed

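Per the file headers, the authors called ATAC-seq peaks in each library with MACS 2.1.2, in broad mode at a q-value of 0.1 and with no control library; tags were shifted by -100 bp and extended to 200 bp, at most 1 per position. Peak by peak, the deposited files hold a signal (pileup), a fold over local background and −log10 of the p-value and q-value. Per the submitters' processing notes, Bowtie2, SAMtools 1.13, Picard, DiffBind 3.2, Cell Ranger and Seurat 4.0.4 were used, with mm10. The single-cell matrices hold deposited counts of UMIs. The deposited bulk RNA-seq tables (54 libraries) list transcripts with no gene names and were not used here. The E16.5 matrix, whose file name reads as a later embryonic day, has no gene table, and its rows were read in the order of the other libraries' tables, which was checked against them by correlation.

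Peaks were merged over libraries, a region was open in a library where any peak overlapped it, and log2(number of open regions + 1) per gene was tested with limma 3.58.1 in R 4.3.3, organ as a covariate and Benjamini-Hochberg adjustment over all protein-coding genes at 0.05. Genes with an open region in fewer than 3 libraries of a comparison were left out. Exact permutation tests, within organs, used Python 3.11.15 and numpy 2.4.6. The limma test was first tested on simulated data with 200 genes changed 2-fold. It recovered 34% of them in adults, 76.5% at P6 and 28% at E12. Between P6 and adult it recovered 61.5%, and between E12 and P6 30%, with 0 to 5.08% of calls false. A missing call in these comparisons is therefore not evidence of no difference. The simulated numbers were drawn from a Poisson distribution around each gene's organ mean. They held no differences in list length and no spread beyond counting, so the recovered and false shares may not hold for the real lists.

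The 7 genes were named in every comparison, other pathway genes by the largest folds of each list, and regions where they passed the test or met the brain and retina rule. The members, the lists and these rules were chosen with earlier results of these data known. Alternatives were equal numbers of top peaks, −log10 q of at least 3, a 5 kb window, bases covered, no filter, the number of peaks as a covariate, a replicate block, each library left out in turn, 50% coverage of a region, and, for single cells, stricter filters and thinning; the kind of read processing, the kind of matrix and, for the wider pathway lists, equal top peaks, a filter on the mean level and the removal of barcodes with genes of other cells were added after seeing the data.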

Additional observations from a re-analysis of the deposited data

Results flagged for a closer look

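Fzd6 had 3 open regions in E12 heart endothelial 3, while the other 3 E12 heart endothelial libraries had 10 to 11; the gap was 0.875 of the group's range. That library also had the shortest list of peaks at E12, 39096, from 10.1 M tags, and the part of list length in the low count was not tested. Only groups of 4 libraries could be examined in this way, 14 groups in all for the 7 genes, and chance flags about 1 in 20 such groups.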

How the results depend on the processing

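In adults, endothelium against input, the number of members past the limma test was 0 on all peaks, 3 with equal numbers of top peaks, 3 with the number of peaks as a covariate and 1 with the kind of read processing as a covariate. At P6 it was 2 on all peaks, 4 with equal top peaks, 4 with a 5 kb window, 1 (Lrp6) on bases covered and 4 with the number of peaks as a covariate. At E12 it was 0 on all peaks, 2 with equal top peaks, 1 with a 5 kb window and 5 with the number of peaks as a covariate. From P6 to adult it was 7 on all peaks, 1 with equal top peaks and 0 with the number of peaks as a covariate. Over all genes the shares higher and lower moved too: with a 5 kb window to 3.82% and 21.2% at P6 and 2.39% and 5.88% at E12, on bases covered to 1.87% and 27.4% at P6, with read processing to 0.478% and 43.0% in adults, and with the number of peaks to 9.45% and 8.84% in adults, 13.6% and 11.7% at P6, 32.0% and 8.91% at E12 and 0.641% and 1.32% from P6 to adult. Of the members' regions, 22 were called at P6, 14 with equal top peaks (5 of them among the 22) and 4 where at least 50% of the region had to be covered (2 of them among the 22; 1.19% of all regions were then more and 0.184% less often open). The 1 member in order at P6 between brain with retina and the other organs became 3 with equal top peaks and 2 with a 5 kb window. Leaving out 1 library at a time gave 0 to 1 members in adults, 2 at P6, 0 to 2 at E12, 7 from P6 to adult, 0 to 1 from E12 to P6, 3 to 4 for the adult organs and 0 to 2 for the P6 organs, and 9 to 20 regions at P6.

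Same-numbered libraries correlated between -0.257 and 0.265 in their deviations from the group means. Where both groups of an organ hold 2 libraries, both numbers give the same value by construction, and groups of 1 library cannot enter. Whether the numbers pair the libraries therefore cannot be told from these values. With a replicate block, fitted on the libraries whose organ and number occurred in both kinds, 0 members were called in adults and 1, Lrp6, at P6. Over all genes 0.184% were then higher and 14.3% lower in adults, and 1.33% and 26.8% at P6.

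Directions turned for these log2 differences, none of them past the test on all peaks except where named. For Fzd4 the adult difference became 0.25 with equal top peaks, 0.15 with a 5 kb window, 0.016 on bases covered and 0.33 with the number of peaks as a covariate, and the P6 difference 0.10 with equal top peaks, 0.10 with −log10 q of at least 3, 0.35, 0.16 and 0.33 in that order, and 0.13 with read processing as a covariate. Adult Lrp5 became -0.048 with read processing and -0.019 with the replicate block, Lrp6 0.24 with equal top peaks, Reck 0.34 with equal top peaks, 0.020 with −log10 q of at least 3 and 0.14 with the number of peaks, and Ctnnb1 0.25 with equal top peaks, 0.21 with a 5 kb window and 0.083 with the number of peaks. Lrp6 at P6, which passed on all peaks, became 0.031 with equal top peaks. From P6 to adult, where all 7 passed on all peaks, Fzd4 became 0.090, Lrp5 0.095 and Lrp6 0.10 with equal top peaks, and Fzd4 0.10 and Fzd6 0.30 with the number of peaks as a covariate. The adult Fzd6 difference of brain and retina from the other organs, 2.62 regions, became -0.375 with equal top peaks. With 1 library left out, Fzd4 at P6 ran from -0.073 to 0.12, Lrp5 in adults from -0.10 to 0.11 and Reck at P6 from -0.019 to 0.096. The cause was not tested, apart from the top peaks, which fix the list length by construction. The ATAC-seq lists give no counts per region, so a region missed in a shallow library and a closed region look alike; single-cell levels rest on 1 library per age.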
